A study of Mus musculus with 8 samples.

Results

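The genes described here carry the beta-adrenergic signal of the heart through cyclic AMP (cAMP): the receptor Adrb1, the G protein subunit Gnas, the adenylyl cyclases Adcy5, Adcy6 and Adcy9, the receptor kinase Grk5, and the cAMP phosphodiesterases Pde4a, Pde4b and Pde4d. They were chosen as a named set of 9 genes, and every gene probe of the array whose RefSeq accession maps to 1 of these symbols was taken. Of the 9 genes, 8 had a probe (19 probes in all), of 15597 named genes on the array; no probe matched Adcy5. The mice were females of the inbred strain C57BL/6 at 12 weeks of age, and they received into the peritoneum either 5 mg/kg lipopolysaccharide (LPS, 4 mice), a component of the outer membrane of Gram-negative bacteria, or saline (4 mice). Hearts were perfused with buffer and taken 8 h after the injection. RNA from pieces of each whole heart was labelled and hybridised to its own 1-colour spotted oligonucleotide array, so each group holds 4 separate hearts. All mice were otherwise untreated on a chow diet, and the labels give no other allele or agent.

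In heart muscle, noradrenaline and adrenaline bind beta-adrenergic receptors, of which the beta-1 receptor is the main one. The receptor activates the stimulatory G protein, whose alpha subunit turns on adenylyl cyclase. The cyclase makes cAMP, which activates protein kinase A, and the kinase phosphorylates calcium-handling and contractile proteins so that the heart beats faster and harder. Phosphodiesterases break cAMP down and keep it in small compartments of the cell, and receptor kinases switch the receptor off. A weakened contractile response to catecholamines is a known feature of the heart in sepsis.

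Read from the brightest probe of each gene, Pde4b was 5.22-fold higher in LPS hearts than in saline hearts, while Pde4a was 1.94-fold lower and Adrb1 was 1.58-fold lower. These were the 3 genes of the set that passed the test across the whole array. Adcy6, Gnas, Adcy9, Grk5 and Pde4d did not pass it. Over all 12100 features tested, 18.7% were called, 9.30% as higher and 9.36% as lower, and the 3 called of 8 tested members stand beside that background with no test of the set. The median change of the 8 members was -0.12 on the log2 scale, against -0.04 over all features. In pieces of whole heart, fewer cells of a type and less RNA per cell cannot be told apart.

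**Figure D1:**
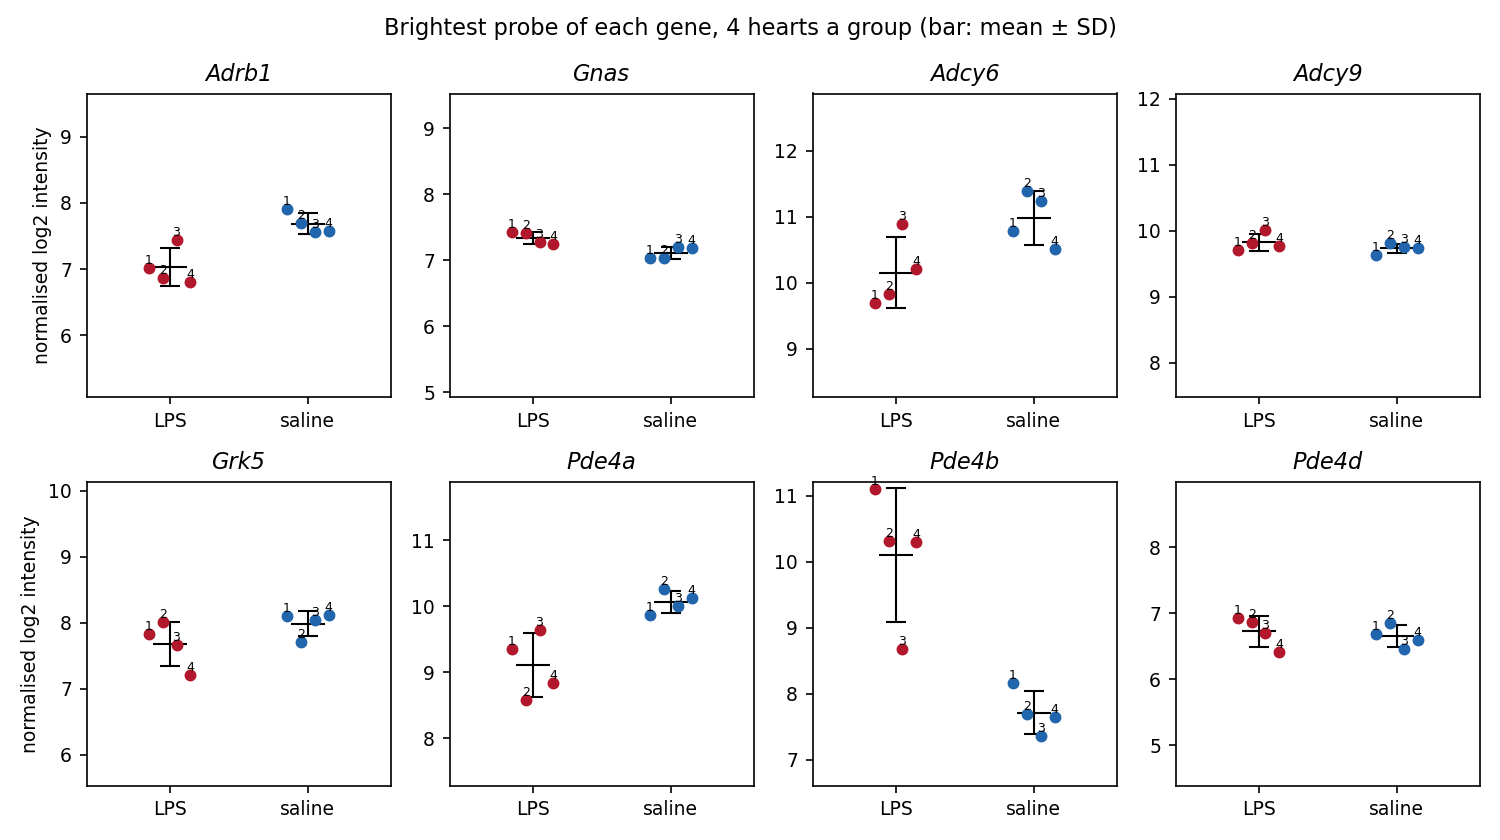
Normalised log2 intensity (vertical axis) of the brightest probe of each gene in the 4 LPS hearts and the 4 saline hearts; each point is 1 array, the small digit beside it is its replicate number, and bars give the mean ± SD. The groups do not overlap for Pde4b and Gnas (higher in LPS) or for Adrb1 and Pde4a (lower in LPS).

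All levels below are normalised log2 intensities, and all changes are the LPS mean minus the saline mean on that scale, each with its standard error (SE) from the fit. They describe 1 probe each: the brightness of different probes depends on the oligonucleotide as well as on the RNA, so no level is set against that of another probe. Brightness was judged on each array against its own negative controls: a spot over their 95th percentile was taken as above background. Of the 19 probes, 13 passed this limit on 4 or more arrays and were tested, 4 were above it on no array, and 2 on some but fewer than 4.

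The receptor came first in the pathway and was lower. Adrb1 encodes the beta-1 adrenergic receptor. Its probe mMC017738 read 7.01, 6.87, 7.44 and 6.81 in LPS hearts 1 to 4, against 7.90, 7.70, 7.57 and 7.58 in saline hearts 1 to 4. All 4 LPS hearts lay below all 4 saline hearts, and LPS heart 3 came closest to the saline range. Adrb1 fell by 0.66 (SE 0.16, 95% interval -1.01 to -0.30, adjusted p = 0.0179). The probe was above background on all 8 arrays but dim, at 34 to 97 intensity units over local background in LPS hearts and 109 to 413 in saline hearts. A second Adrb1 probe, mMR027606, was above background on no LPS array and on 1 saline array and was not tested; it read 6.25 to 6.43 in LPS hearts and 6.39 to 6.47 in saline hearts. Without LPS replicate 2 the Adrb1 change was -0.60 (adjusted p = 0.0588), and without LPS replicate 4 it was -0.58 (adjusted p = 0.0552).

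Gnas encodes the stimulatory alpha subunit that couples the receptor to the cyclase. Its brightest probe, mMR028943, read 7.42, 7.41, 7.27 and 7.25 in LPS hearts, against 7.03, 7.04, 7.20 and 7.18 in saline hearts. The groups did not overlap, yet the gap between LPS heart 4 and saline heart 3 was small. The change of 0.22 (SE 0.11, 95% interval -0.02 to 0.47) did not pass the test across all features (adjusted p = 0.187), although the exact two-sided permutation test of this probe alone gave p = 0.0286, the smallest that 4 against 4 allows. The other tested Gnas probe, mMC023430, read 7.47, 7.17, 7.15 and 7.11 in LPS hearts and 7.02, 7.33, 7.17 and 7.16 in saline hearts, with overlapping groups and a change of 0.05 (SE 0.13, adjusted p = 0.796). The remaining pair of Gnas probes was above background on no array. With arrays scaled to the median of all gene probes, the first probe's change was 0.01 (adjusted p = 0.977).

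Adenylyl cyclases make cAMP from ATP, and Adcy6 is with Adcy5 a principal form in heart muscle. Adcy6 read 9.69, 9.82, 10.88 and 10.22 in LPS hearts at probe mMC022153, against 10.78, 11.39, 11.23 and 10.52 in saline hearts. LPS heart 3 lay above saline hearts 1 and 4, so the groups overlapped. The change of -0.83 (SE 0.28, 95% interval -1.44 to -0.21) missed the threshold (adjusted p = 0.0629). A dimmer Adcy6 probe, mMC008699, read 6.08, 6.24, 6.80 and 6.48 in LPS hearts and 7.32, 6.68, 7.12 and 6.83 in saline hearts. It was above background on 1 LPS array and on 4 saline arrays, and it also missed the threshold, at -0.59 (SE 0.19, adjusted p = 0.0600). The third Adcy6 probe was above background on 2 saline arrays only and was not tested. The call of the brightest Adcy6 probe depended on the arrays and the processing: without LPS replicate 3 it was -1.07 (adjusted p = 0.00869), and without saline replicate 4 it was -0.98 (adjusted p = 0.0492).

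Adcy9, a cyclase found in many tissues, did not pass the test. It read 9.70, 9.82, 10.01 and 9.77 in LPS hearts and 9.64, 9.81, 9.75 and 9.74 in saline hearts. The groups overlapped, and the change of 0.09 had a narrow 95% interval, -0.16 to 0.34 (SE 0.11, adjusted p = 0.611). With arrays scaled to the median of all gene probes it was -0.36 (adjusted p = 0.228).

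Grk5 is a kinase that phosphorylates activated receptors and so uncouples them. It read 7.82, 8.00, 7.66 and 7.21 in LPS hearts and 8.09, 7.70, 8.03 and 8.11 in saline hearts at its brighter probe. LPS hearts 3 and 4 lay below all saline hearts, and LPS hearts 1 and 2 reached into the saline range. The change of -0.31 (SE 0.18, 95% interval -0.71 to 0.09) did not pass the test (adjusted p = 0.261). A second Grk5 probe changed by -0.07 (SE 0.14, adjusted p = 0.779).

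The PDE4 enzymes are cAMP-specific phosphodiesterases, each gene giving several isoforms from its own start sites. Pde4b is known from white blood cells as the form that LPS induces. In these hearts it read 11.11, 10.31, 8.69 and 10.31 with LPS at probe mMC023098, against 8.17, 7.69, 7.37 and 7.65 with saline. Every LPS heart exceeded every saline heart, and LPS heart 3 was the lowest of its group by more than 1 log2 unit. Pde4b rose by 2.38 (SE 0.42, 95% interval 1.44 to 3.32, adjusted p = 0.00420), and this change ranked 120 among the 12100 features ordered from the largest rise. Signals over local background were 291 to 2514 intensity units in LPS hearts and 89 to 522 in saline hearts. It was the only Pde4b probe on the array. Its change was 2.86 without LPS replicate 3 and 2.05 without LPS replicate 1, and it was called in each of the 8 fits that left out 1 heart.

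Pde4a went the other way. It read 9.35, 8.58, 9.64 and 8.83 in LPS hearts at probe mMC014870, against 9.86, 10.25, 9.998 and 10.12 in saline hearts. The saline hearts lay close together and all above the LPS hearts, which spread more widely. Pde4a fell by 0.96 (SE 0.22, 95% interval -1.45 to -0.47, adjusted p = 0.0143). A second probe of the same RefSeq transcript, mMA032827, read 6.79, 6.63, 6.86 and 6.40 in LPS hearts and 7.40, 7.22, 7.18 and 7.24 in saline hearts, again without overlap, and fell by 0.59 (SE 0.13, adjusted p = 0.0121). Another probe, mMA034010, is assigned to a different Pde4a transcript. It read 7.79, 7.09, 6.89 and 7.46 in LPS hearts against 6.87, 6.81, 6.84 and 6.81 in saline hearts, so that all 4 LPS hearts were higher. Its change of 0.47 (SE 0.18) missed the threshold (adjusted p = 0.103). The per-array difference of this probe from the brightest Pde4a probe was -1.79 ± 0.64 in LPS hearts and -3.22 ± 0.20 in saline hearts (SD, n = 4 each), a shift of 1.43 with an exact two-sided permutation p of 0.0286; this pair of probes was singled out after their values were seen. The remaining Pde4a probe was above background on no array.

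Pde4d, in mouse heart part of the ryanodine receptor complex that releases calcium, read 6.93, 6.87, 6.70 and 6.40 in LPS hearts and 6.68, 6.85, 6.45 and 6.60 in saline hearts. The groups overlapped fully. The probe was above background on 3 LPS arrays and 3 saline arrays, and the change was 0.08 (SE 0.15, 95% interval -0.25 to 0.41, adjusted p = 0.748). At this brightness a small change of Pde4d was not detectable. A second Pde4d probe was above background on no array.

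**Figure D2:**
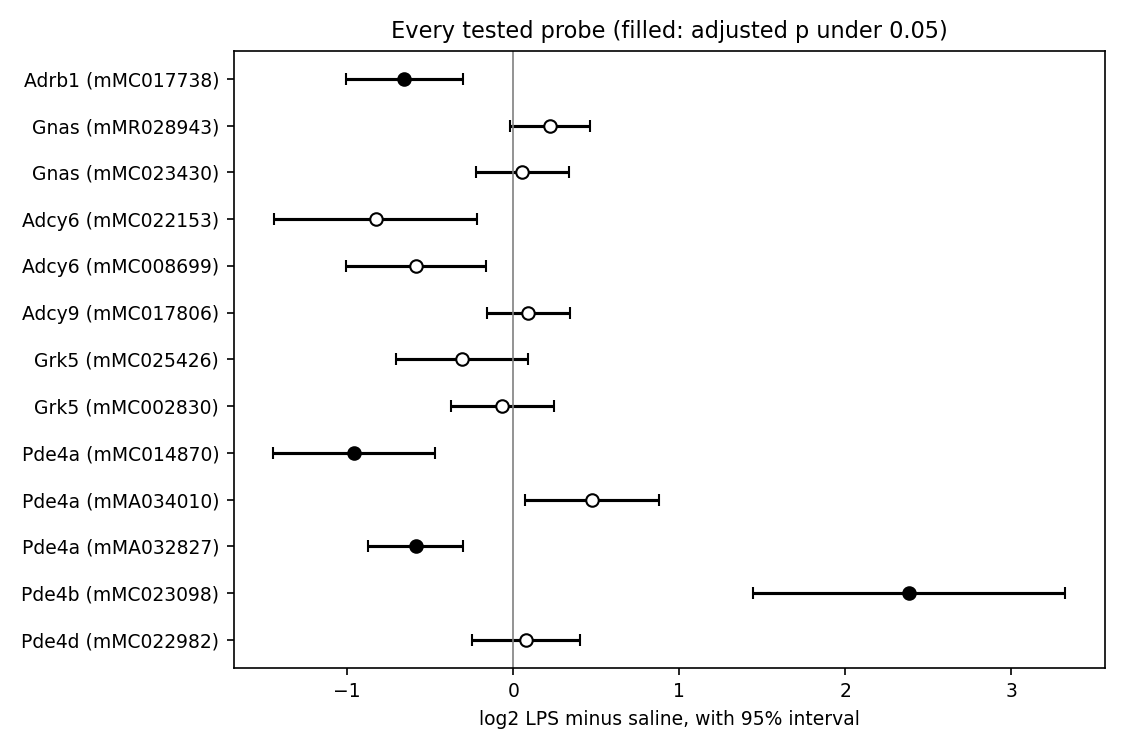
Change of every tested probe (horizontal axis, log2 LPS minus saline, bars: 95% interval), with the probe's name beside its gene. Filled points had an adjusted p under 0.05: Adrb1 and 2 Pde4a probes lay below 0, and Pde4b at 2.38 lay farthest above it.

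Counted over probes instead of genes, 4 of the 13 tested probes were called, 3 of them as lower, against 17.5% of all tested probes called and 8.89% called as lower. Groups did not overlap for 6 of the 13, against 22.3% of all tested probes. By gene, the brightest probe did not overlap for 4 of the 8 members, 2 higher and 2 lower, against 23.1% of all features.

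Since Adrb1, Pde4a and Pde4b were the called members, the 250 bases before each annotated transcription start were searched for sites that cAMP- and LPS-activated transcription factors are known to bind. RefSeq (GRCm38.p6) gave 16 such windows for 8 members, all but Adcy6. The full cAMP response element TGACGTCA was in 0 of the 16 windows, against 1.55% of 32851 windows over all genes. Its short core TGACG, on either strand and including those within a full element, was in 7 windows of 5 members, against 17.8% of all windows; of the 3 Gnas windows among them, an overlapping pair holds the same site, so the 7 windows count it 2 times. The NF-kB consensus, GGG then A or G, 2 bases of any kind, 2 of C or T, and CC, was searched on either strand. It was in 2 windows, both of Pde4b, against 7.25% of all windows. The windows of the called members that held a match are printed on the plus strand, which is also the strand of these genes, with the matched bases in capitals; a match describes the letters and shows no binding.
Adrb1, chr19:56721867-56722116, core on the plus strand: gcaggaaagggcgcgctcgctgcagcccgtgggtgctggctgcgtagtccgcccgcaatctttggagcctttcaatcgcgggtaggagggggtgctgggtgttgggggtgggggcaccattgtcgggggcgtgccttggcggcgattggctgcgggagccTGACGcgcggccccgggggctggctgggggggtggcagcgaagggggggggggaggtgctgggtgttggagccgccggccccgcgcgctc
Pde4a, chr9:21183851-21184100, core read on the minus strand: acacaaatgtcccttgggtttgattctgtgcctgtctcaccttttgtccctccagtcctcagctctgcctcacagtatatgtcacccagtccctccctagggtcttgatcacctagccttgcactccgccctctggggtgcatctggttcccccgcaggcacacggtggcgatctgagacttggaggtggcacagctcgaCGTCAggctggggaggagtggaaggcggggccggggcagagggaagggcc
Pde4b, chr4:102421305-102421554, core read on the minus strand: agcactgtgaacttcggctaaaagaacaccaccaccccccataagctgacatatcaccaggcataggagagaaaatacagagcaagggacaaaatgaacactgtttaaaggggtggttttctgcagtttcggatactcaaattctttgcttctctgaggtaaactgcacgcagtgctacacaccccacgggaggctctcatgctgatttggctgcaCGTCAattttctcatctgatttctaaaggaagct
Pde4b, chr4:102569810-102570059, NF-kB consensus: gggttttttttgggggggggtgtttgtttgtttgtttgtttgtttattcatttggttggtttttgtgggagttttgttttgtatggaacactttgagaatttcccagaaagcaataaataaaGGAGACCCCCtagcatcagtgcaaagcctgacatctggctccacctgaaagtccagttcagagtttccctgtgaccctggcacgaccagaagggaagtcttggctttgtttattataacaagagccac
Pde4b, chr4:102587308-102587557, NF-kB consensus: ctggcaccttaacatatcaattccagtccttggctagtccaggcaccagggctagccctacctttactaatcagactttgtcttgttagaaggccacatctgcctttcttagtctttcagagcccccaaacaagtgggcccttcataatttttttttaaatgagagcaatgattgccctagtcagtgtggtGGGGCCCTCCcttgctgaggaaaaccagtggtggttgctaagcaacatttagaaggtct
The Adrb1 core begins 90 bases before the start and the Pde4a core ends 46 bases before it. The pair of NF-kB matches in Pde4b lies at 2 different start sites, and the arrays do not tell which start gave the RNA. The match printed as GGAGACCCCC is read on the minus strand, and GGGGCCCTCC on the plus strand.

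Whether family members changed differently was tested within each heart, by subtracting 1 gene's log2 value from the other's on the same array. The size of such a difference mixes probe brightness with RNA, so only its shift between groups is read. Pde4b minus Pde4a averaged 1.00 ± 1.31 in LPS hearts and -2.34 ± 0.44 in saline hearts (SD, n = 4 each), a shift of 3.34 (exact permutation test, two-sided, p = 0.0286, adjusted over 4 pairs p = 0.0381). Pde4b minus Pde4d averaged 3.38 ± 0.98 in LPS hearts and 1.07 ± 0.29 in saline hearts, a shift of 2.31 (exact permutation test, adjusted p = 0.0381). Pde4a minus Pde4d averaged 2.38 ± 0.50 in LPS hearts and 3.41 ± 0.17 in saline hearts, a shift of -1.04 (exact permutation test, adjusted p = 0.0381). For these 3 pairs no LPS heart reached the saline range, and 0.0286 is the smallest p the design allows. The Pde4d probe was dim, above background on 3 LPS arrays and 3 saline arrays, and the background offset shrinks the changes of dim probes. Shifts of the pairs with Pde4d therefore carry mainly the change of Pde4b or Pde4a. They cannot show how Pde4d itself changed. With arrays scaled to a median in place of quantiles, all 3 pairs missed the threshold (exact permutation test, adjusted p = 0.0571 each), with shifts of 3.39, 2.03 and -1.36. Pde4a stands in these pairs for its brightest probe. The tested probe of another Pde4a transcript, mMA034010, changed in the other direction, by 0.47 (limma, adjusted p = 0.103). That probe was not paired with Pde4b or Pde4d. Adcy6 minus Adcy9 averaged 0.33 ± 0.42 in LPS hearts and 1.25 ± 0.36 in saline hearts, and the groups overlapped. Its shift of -0.92 did not pass (exact permutation test, adjusted p = 0.0571), so a different change of the cyclases was not shown.

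**Figure D3:**
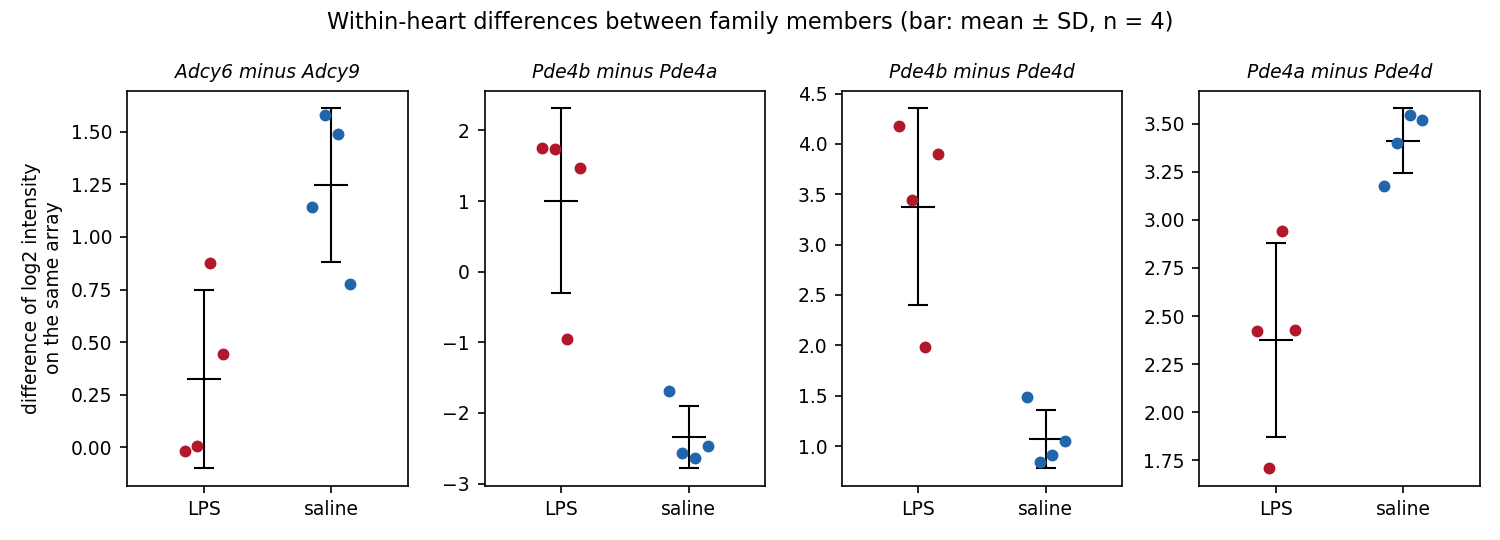
Difference of log2 intensity between family members on the same array (vertical axis) in LPS hearts and saline hearts; points are hearts, bars the mean ± SD. With each gene read from its brightest probe, the LPS and saline hearts do not overlap for the 3 PDE4 pairs and overlap for Adcy6 minus Adcy9.

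Scan day and slide series divided the hearts unevenly. A mark in the file names, redip, whose meaning the sources do not give, was on hearts 2 and 4 of each group. The first scan day held LPS hearts 2, 3 and 4 with saline hearts 3 and 4; the second held LPS heart 1 with saline heart 2, and the third held saline heart 1. With scan day as a block Pde4b changed by 2.60 (adjusted p = 0.00887), Pde4a by -1.0 (adjusted p = 0.0325) and Adrb1 by -0.58 (adjusted p = 0.0617). Within the first scan day alone, the changes were 2.26 for Pde4b (adjusted p = 0.0604), -1.04 for Pde4a (adjusted p = 0.112) and -0.53 for Adrb1 (adjusted p = 0.197). On the second day, with 1 heart a group and no test, Pde4b was again higher and Pde4a and Adrb1 lower in the LPS heart. LPS hearts 2, 3 and 4 were on slides of a series that held no saline heart, so the fit with slide series as a block rests on LPS heart 1 against the saline hearts. It gave 3.39 for Pde4b (adjusted p = 0.00901), -0.70 for Pde4a (adjusted p = 0.271) and -0.68 for Adrb1 (adjusted p = 0.162). Among the 4 hearts with the redip mark Pde4b changed by 2.64 (adjusted p = 0.000322), Pde4a by -1.48 (adjusted p = 0.00394) and Adrb1 by -0.80 (adjusted p = 0.0243). Among the 4 without it no member was called, with Pde4b at 2.13 (adjusted p = 0.337), Pde4a at -0.43 (adjusted p = 0.531) and Adrb1 at -0.51 (adjusted p = 0.513).

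**Figure D4:**
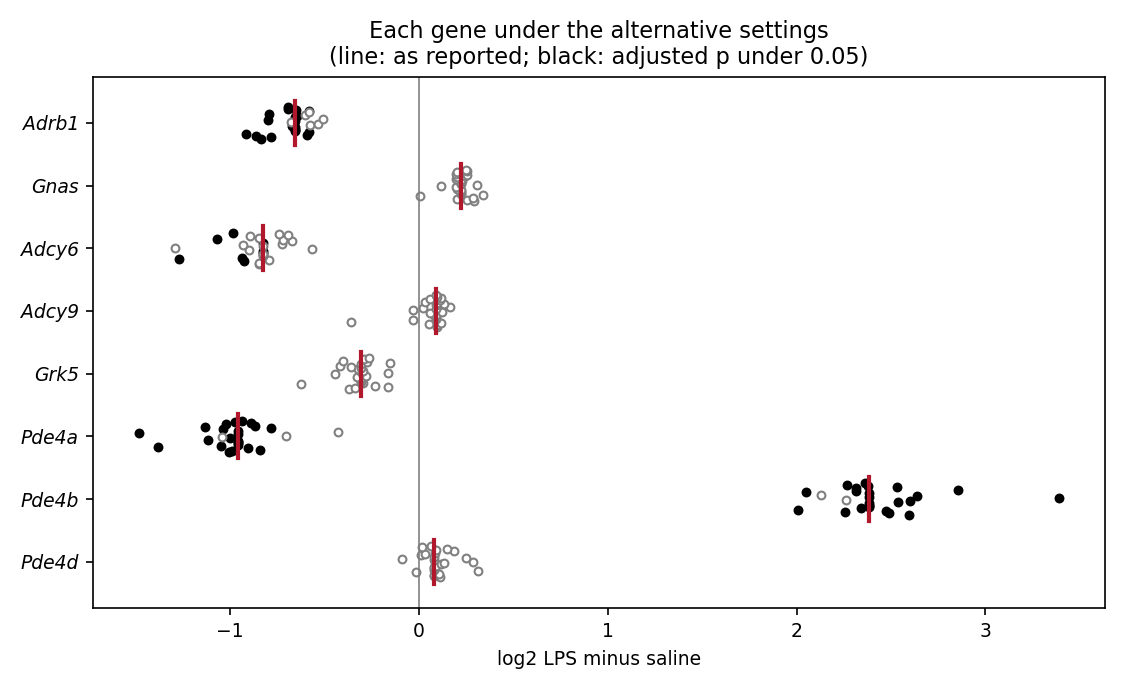
Change of each gene (horizontal axis, log2 LPS minus saline) under the other processing settings and fits; each point is 1 setting, black where the adjusted p was under 0.05, and the line is the value reported above. Pde4b stays at 2.01 or more, Pde4a at -0.43 or less and Adrb1 at -0.51 or less, while Adcy9 and Pde4d lie on both sides of 0.

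Between 37.3% and 42.6% of gene probes were above background on LPS arrays and between 39.7% and 46.9% on saline arrays, with median signals of 12 to 18 and 15 to 32 intensity units over local background. Saline heart 1 had the median of 32, and the other 7 arrays lay at 12 to 19. Spots marked bad numbered 3 to 19 on LPS arrays and 5 to 44 on saline arrays, with the 44 on saline heart 2. The arrays identified heart: all 10 heart muscle markers were tested, 0 were called by limma and 4 were lower at an unadjusted p under 0.05, with summed linear intensities of 182058 to 238567 in LPS hearts and 236842 to 326467 in saline hearts and a median change of -0.40. All 4 tested neutrophil markers (S100a8, S100a9, Csf3r, Retnlg) rose, of 9 on the list and 8 with a probe, and their summed intensity was 1691 to 2299 in LPS hearts and 289 to 743 in saline hearts. Csf3r was above background on 4 LPS arrays and no saline array, so it passed the brightness filter through the LPS hearts alone. S100a9 was above it on 4 LPS and 2 saline arrays. The count of rises is therefore set in part by the filter. The neutrophil genes Cxcr2, Mmp8 and Elane were above background on no array. Neutrophils express Pde4b, and the part of these cells in its rise was not tested. Of the 4 tested monocyte and macrophage markers, 1 was called, Lyz2, which fell, and the list summed to 985 to 1650 in LPS hearts and 1360 to 2308 in saline hearts. Of 6 endothelial markers, 1 was called, Tek, which fell, and their sum was 5209 to 7800 in LPS hearts and 7108 to 9921 in saline hearts. Of 6 tested fibroblast markers, 3 were called: Dcn rose, while Col1a1 and Lum fell. Their list summed to 21437 to 26386 in LPS hearts and 16612 to 21129 in saline hearts, while its median change was -0.69. Neither tested adipocyte marker was called, and that list's sum ran from 170 to 2237 in LPS hearts and from 160 to 623 in saline hearts. The atrial genes Myl7 and Myl4 varied within both groups, with their list's sum at 212 to 60110 in LPS hearts and 223 to 74815 in saline hearts; it was lowest in LPS heart 4 and saline heart 2. The part of these cell types and of this uneven sampling in the members' changes was not tested. Leaving out LPS heart 4 ended the call of Adrb1, as did leaving out LPS heart 2, as given above. Without saline heart 2 Adrb1 kept its call (limma, adjusted p = 0.0483).

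Around the 9 genes, 169 further genes of the pathway were listed by role, with earlier results of these data known. Of these, 152 had a probe, 100 were tested, 11 rose and 16 fell, or 27.0% called against 18.7% over all features. Their median change was -0.05, against -0.04 over all features. The called genes Adcy7 and Adora2b passed the brightness filter only through the group in which each was higher, so these counts are set in part by the filter. With the members counted in their lists, the share called ranged from 9.09% of the substrates of protein kinase A to 41.7% of the cAMP-responsive transcription list.

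**Figure D5:**
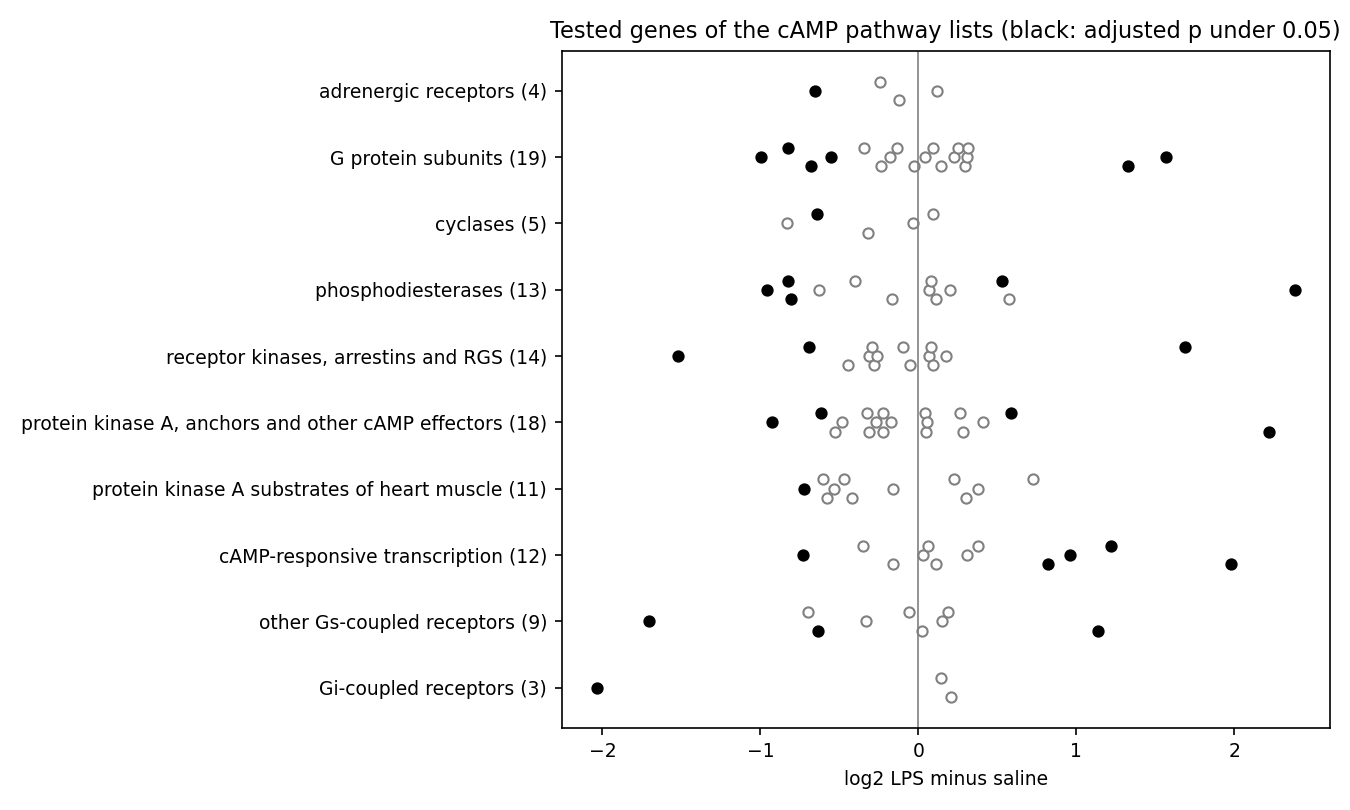
Change (horizontal axis, log2 LPS minus saline) of each tested gene in 10 lists of the pathway, with the number tested in brackets; the members are included, and black points had an adjusted p under 0.05. Pde4b at 2.38 is the highest point and Aplnr at -2.04 the lowest.

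Among adrenergic receptors, 4 of the 9 were tested and Adrb1 alone was called. The alpha-1 receptors Adra1a and Adra1b, which couple to Gq rather than to the cyclase, changed by -0.12 (adjusted p = 0.546) and -0.24 (adjusted p = 0.264). Adra2c, an inhibitory receptor, changed by 0.12 (adjusted p = 0.595). Neither of the other beta receptors on the list passed the brightness filter.

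Of the G protein subunits, 19 of 26 were tested, 2 rose and 4 fell. Gna13, an alpha subunit, rose by 1.57 (SE 0.21, adjusted p = 0.000818), at 9.74 to 10.68 in LPS hearts against 8.40 to 8.95 in saline hearts. Gng12, a gamma subunit, rose by 1.33 (SE 0.24, adjusted p = 0.00448). Gng11, another gamma subunit, fell by 0.99 (SE 0.13, adjusted p = 0.000700), at 7.04 to 7.54 in LPS hearts against 8.20 to 8.35 in saline hearts. Gna11, a Gq-family subunit, fell by 0.68 (SE 0.16, adjusted p = 0.0139), and its 2 other tested probes changed by -0.64 and -0.79. Gnaq of the same family was not called, at 0.04 (adjusted p = 0.865), with -0.24 and 0.16 at its other tested probes. Gna12 and Gnb2 also fell, by 0.82 (adjusted p = 0.0309) and 0.55 (adjusted p = 0.0151). The inhibitory subunits Gnai2 and Gnai3, which restrain the cyclase, changed by -0.14 (adjusted p = 0.861) and 0.30 (adjusted p = 0.167).

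Of 10 cyclases, 5 were tested, Adcy6 and Adcy9 included, and 1 was called. Adcy7, a form known from blood cells, was above background on no LPS array and on all 4 saline arrays. It thus passed the brightness filter through the saline hearts alone, and was at least 1.27-fold lower. Its measured means were 6.28 in LPS hearts and 6.92 in saline hearts (limma on the measured values, adjusted p = 0.0165). Adcy4 and Adcy3 changed by -0.32 (adjusted p = 0.444) and -0.04 (adjusted p = 0.834).

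Of 20 genes on the phosphodiesterase list, 13 were tested, 2 rose and 3 fell, the members Pde4a and Pde4b included. Pde4c, the PDE4 gene outside the set, fell by 0.80 (SE 0.13, adjusted p = 0.00262), at 6.38 to 6.72 in LPS hearts, where 1 array was above background, against 7.09 to 7.49 in saline hearts. With it, and with each gene read from its brightest probe, 1 of the 4 PDE4 genes rose, 2 fell and Pde4d was not called. The probe of another Pde4a transcript did not fall, as given above. Pde6d, which despite its name is a carrier of prenylated proteins, fell by 0.83 (SE 0.15, adjusted p = 0.00518), and its other tested probe changed by -0.41. Pde1a, a calmodulin-stimulated enzyme, rose by 0.53 (SE 0.16, adjusted p = 0.0465), while its second tested probe changed by 0.19 (adjusted p = 0.303). Pde1b had a similar change, 0.57, that missed the threshold (adjusted p = 0.0502). Pde3a, the cGMP-inhibited enzyme that cardiac inotropic drugs block, changed by -0.16 (SE 0.18, adjusted p = 0.565), and Pde8a changed by -0.63 (adjusted p = 0.0957).

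Of the receptor kinases, arrestins and RGS proteins, 14 of 22 were tested, 1 rose and 2 fell, and all 3 were RGS genes, whose proteins speed the switching-off of G proteins. Rgs16 rose by 1.69 (SE 0.20, adjusted p = 0.000473), at 9.52 to 10.03 in LPS hearts against 7.61 to 8.53 in saline hearts. Rgs10 fell by 1.52 (SE 0.15, adjusted p = 0.000151), at 6.74 to 7.30 in LPS hearts against 8.44 to 8.78 in saline hearts. Rgs5, a gene of pericytes, fell by 0.69 (SE 0.18, adjusted p = 0.0256); Cspg4 of the same pericyte and smooth muscle list fell too, 2 of its 5 tested markers. Rgs3 was not called at its brightest probe, at -0.29 (adjusted p = 0.335). In the fit of all kept probes, its other tested probes changed by -0.99 (adjusted p = 0.00898) and -0.82 (adjusted p = 0.0244). Grk2, the other main receptor kinase of the heart, changed by -0.28 (SE 0.16, adjusted p = 0.244), and the arrestins Arrb1 and Arrb2 by -0.05 (adjusted p = 0.826) and -0.44 (adjusted p = 0.0585).

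Of protein kinase A subunits, anchors and other cAMP effectors, 18 of 31 were tested, 2 rose and 2 fell. Akap12, a scaffold that binds the kinase and beta receptors, rose by 2.22 (SE 0.29, adjusted p = 0.000752), at 9.60 to 11.20 in LPS hearts against 7.79 to 8.20 in saline hearts. The regulatory subunit Prkar1b rose by 0.59 (SE 0.18, adjusted p = 0.0445). The kinase inhibitor Pkia fell by 0.92 (SE 0.27, adjusted p = 0.0384), and the mitochondrial anchor Akap1 fell by 0.61 (SE 0.16, adjusted p = 0.0255), with -0.29 and -0.87 at its other tested probes. The catalytic subunit Prkacb changed by -0.23 (SE 0.11, adjusted p = 0.199). Rapgef3, a cAMP-activated exchange factor also called Epac1, changed by 0.41 (adjusted p = 0.0545).

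Among protein kinase A substrates of heart muscle, 11 of 13 were tested and 1 was called. Fxyd1 (phospholemman), which regulates the sodium pump, fell by 0.73 (SE 0.21, adjusted p = 0.0360). The calcium pump regulator Pln changed by -0.58 (adjusted p = 0.136), the calcium release channel Ryr2 by -0.47 (adjusted p = 0.415), the channel subunit Cacna1c by -0.60 (adjusted p = 0.167) and the calcium channel inhibitor Rrad by 0.72 (adjusted p = 0.0697). The median of this list was -0.42, near the -0.40 of the heart muscle markers, with which it shares Tnni3, Ryr2 and Pln.

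The cAMP-responsive transcription list holds genes known to respond to cAMP through CREB, together with CREB-related factors and coactivators. Of this list, 12 of 18 were tested, 4 rose and 1 fell. The factors and coactivators Creb3, Atf1, Crtc1 and Crtc3 were tested and not called. Most of the responsive genes respond to other stimuli as well. Fos, an immediate early gene, rose by 1.98 (SE 0.31, adjusted p = 0.00232), at 8.15 to 9.74 in LPS hearts against 6.50 to 7.13 in saline hearts. The clock gene Per1 rose by 1.22 (SE 0.20, adjusted p = 0.00316), the kinase Sik1 by 0.96 (SE 0.19, adjusted p = 0.00626) and the repressor Nfil3 by 0.82 (SE 0.23, adjusted p = 0.0330). Ppargc1a, a coactivator of mitochondrial genes, fell by 0.73 (SE 0.18, adjusted p = 0.0221). Crem changed by 0.38 (adjusted p = 0.168).

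Of the other receptors and receptor partners that act on the cyclase, 9 of 19 on the stimulatory list and 3 of 10 on the inhibitory list were tested. Crhr2, the urocortin receptor, fell by 1.70 (SE 0.16, adjusted p = 0.000105), at 7.05 to 7.69 in LPS hearts against 8.85 to 9.08 in saline hearts. Aplnr, the apelin receptor, which couples to the inhibitory G protein, fell by 2.04 (SE 0.24, adjusted p = 0.000396), at 6.60 to 6.93 in LPS hearts against 8.03 to 9.31 in saline hearts. Ramp3, a partner protein of the adrenomedullin receptor, fell by 0.64 (SE 0.18, adjusted p = 0.0373). Adora2b, an adenosine receptor, was above background on all 4 LPS arrays and on no saline array. It thus passed the brightness filter through the LPS hearts alone, and was at least 1.89-fold higher. Its measured means were 7.40 in LPS hearts and 6.26 in saline hearts (limma on the measured values, adjusted p = 0.000618). The muscarinic receptor Chrm2 changed by 0.14 (adjusted p = 0.507).

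Of these 27 called genes, 16 kept the call in each of the 8 fits that left out 1 heart, and 11 lost it in at least 1. No sign turned in any alternative. With arrays scaled to the median of all gene probes, the calls of Gng12 (adjusted p = 0.0687), Gna12 (0.0559), Adcy7 (0.0598), Pde1a, Prkar1b, Pkia and Nfil3 ended. Without LPS replicate 2 Gnb2 had an adjusted p of 0.0513. Gna12 lost its call without LPS replicates 1, 2 or 4 or saline replicate 3, with adjusted p-values of 0.0610 to 0.0775. Rgs5 lost it without LPS replicates 2 or 4 or saline replicates 2 or 4 (0.0691 to 0.0733), and Ppargc1a without LPS replicates 2 or 4 or saline replicates 1 or 2 (0.0502 to 0.0678). Pkia lost it without LPS replicates 2, 3 or 4 or saline replicates 1, 2 or 4 (0.0702 to 0.108), and Akap1 without LPS replicates 1, 2 or 4 or saline replicates 1, 2 or 4 (0.0514 to 0.0768). Nfil3 and Ramp3 lost it without LPS replicates 1, 2 or 4 or saline replicates 1, 3 or 4 (0.0569 to 0.0864 and 0.0711 to 0.104). Pde1a, Prkar1b and Fxyd1 kept it only without LPS replicate 3 and otherwise had 0.0545 to 0.101, 0.0652 to 0.112 and 0.0599 to 0.0931.

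Genes outside all lists that followed the called members most closely over the 8 hearts were found by the root mean square (RMS) difference of log2 values centred on the saline mean. For Pde4b these were Adamts1, a secreted protease (0.262), and Csrnp1, a nuclear protein (0.276), against a median of 1.86 over 8754 candidates. Adamts1 rose by 2.20 and Csrnp1 by 2.33 (adjusted p = 0.00149 and 0.00220). For Pde4a they were Megf9 (0.139) and Reep1 (0.154), against a median of 0.742, with changes of -0.996 and -0.834. For Adrb1 they were Mkks (0.0841) and Rufy1 (0.0985), against a median of 0.524, with changes of -0.67 and -0.62. These distances describe 8 arrays and carry no test. Because the genes were picked for nearness on this scale, changes close to that of the member follow from the choice.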

How the data were processed

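Per the file headers, the deposited scanner files hold median spot and local background intensity at 635 nm recorded with GenePix Pro 4.1.1.4 on a 4000B instrument at gain 650 and 5 µm pixels, without normalization or background subtraction by the authors. A deposited value table was not used, since 0 of its probe identifiers occur among the scanned ones. The members and gene lists were chosen with earlier results of these data known.

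Intensities were background-corrected with normexp (offset 50, which shrinks the changes of dim probes) in limma 3.58.1 and R 4.3.3, taken to log2 and quantile normalised over 35078 gene probes. Spots marked bad were missing values, and no member spot was saturated. Probes over the 95th percentile of 94 negative-control spots on 4 or more arrays were kept (14914). Each gene was read from its brightest probe, which left 8875 genes besides 3225 probes with no name. Another fit took all kept probes.

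The 4 LPS and 4 saline arrays were compared by limma with Benjamini-Hochberg adjustment over all features and a threshold of 0.05. For a gene dim on all arrays of a group, the fold is a bound: each dim array was raised to its lowest normalised value among probes above background. Family pairs were tested by exact permutation (70 arrangements), over 4 pairs in place of the 6 planned, as Adcy5 had no probe. Genes named are the 9 members with every probe, the 2 called genes with the lowest adjusted p in each direction of each list, the 2 nearest in pattern for the 3 members with the lowest adjusted p, and list members beside small counts. Uncalled list genes named with values, beyond those, were picked with their values known. The number of arrays limits precision. Alternatives covered background correction, scaling, filter, prior, array weights, blocks, and leaving out each array.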

Additional observations from a re-analysis of the deposited data

Results flagged for a closer look

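Of 38 groups of 4 arrays checked, 1 held an array that stood apart from the other 3 by its gap. At the Gnas probe mMC023430, LPS heart 1 read 7.47 on the normalised log2 scale, the nearest LPS heart read 7.17 and the farthest 7.11. The gap was 0.8295 of the group's range, just at the critical value of Dixon's test, and a single such group among 38 is within what this test flags by chance. The brighter Gnas probe showed no such gap in LPS heart 1.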

How the results depend on the processing

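Among 26 alternatives, Pde4b was called in 24 (2.01 to 3.39), Pde4a in 23 (-1.48 to -0.43) and Adrb1 in 20 (-0.92 to -0.51), all with the same sign. Adcy6 was called in 8 of 26, Gnas, Adcy9, Grk5 and Pde4d in none. Besides the fits given with the report, Adcy6 was called with mean pixel intensity (-0.93, adjusted p = 0.0232), scaling to the median of all gene probes (-1.27, 0.0228) or of tested probes (-0.94, 0.0248), array weights (0.0436), a trended robust prior (0.0473) and the replicate block (0.0441). Same-numbered LPS and saline hearts correlated at 0.09, -0.14, 0.09 and -0.08 in their deviations from the group means, and not every heart correlated best with its own number. Same-numbered hearts also had the same redip status. These few correlations cannot decide whether the hearts were handled in pairs. With the replicate block the SE of Pde4b was 0.26, against 0.42 without it. The replicate block changed no call of Adrb1, Pde4a or Pde4b and gave 1967 called features against 2258.

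Scaling to the median of all gene probes moved the median of all features to -0.31 from -0.04 and gave 447 higher and 1452 lower calls, against 1125 and 1133. Under it 7 wider pathway genes rose. Under that scaling and scaling to tested probes alike, the shifts were 3.39 for Pde4b minus Pde4a, 2.03 for Pde4b minus Pde4d and -1.36 for Pde4a minus Pde4d, each with an adjusted p of 0.0571, so that all 3 calls ended. The smallest unadjusted p of the exact permutation test is 0.0286, so each adjusted p also depends on how many pairs reach it. Mean pixel intensity made Adcy6 minus Adcy9 -0.98 (adjusted p = 0.0286). With probes above background on all 8 arrays, Pde4b minus Pde4a stayed 3.34 with an adjusted p of 0.0571 over the 2 pairs left. Its values were unchanged there, so that call ended through the set of pairs adjusted together. With scan day as a block 1 member was called lower. Within the first scan day 0 members were higher and 0 lower by limma (1 and 2 at an unadjusted p under 0.05), and 5 wider genes rose and 6 fell. With slide series as a block 0 members (2 unadjusted) and 6 wider genes were lower, and Pde4b minus Pde4d was 3.11. Within arrays without the redip mark, 2 against 2, all these counts were 0 by limma (unadjusted, 1 member higher and 0 lower, 10 wider genes higher and 8 lower), with 79 features called over the array. Leaving out 1 heart gave 1 to 3 members lower, 8 to 14 wider genes higher and 8 to 18 lower. The fits within a day or mark rest on fewer arrays; the cause of the other differences was not tested. Low brightness limits Pde4d, Adcy7, Pde4c and the second probes of Adrb1 and Adcy6.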
